A study of Mus musculus with 31 samples.

Results

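Granulocytes arise from stem cells through a progenitor stage at which the factors PU.1, encoded by Spi1, and C/EBPα, encoded by Cebpa, switch on the myeloid programme, and at which the proteins stored in the primary (azurophil) granules are made in bulk. The genes described here are 10 genes of this programme, fixed by name: the factors Cebpa, Cebpe and Spi1, the receptor gene Csf3r, the primary granule genes Mpo, Elane, Prtn3 and Ctsg, the progenitor marker Ms4a3, and S100a8, a gene of the later granulocyte. Every probe set annotated to 1 of these genes alone was taken, which gave 1 probe set each for 9 of the 10 genes, out of 45037 probe sets and 18193 genes. No probe set was matched to Cebpe, which is therefore named without a value.

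Levels were measured on Affymetrix mouse whole-genome arrays in fetal liver hematopoietic stem cells (FL HSCs), each sample being sorted from 15 embryos pooled at 14.5 dpc, in 3 experiments that were normalized apart. The first compared 2 Crebbp+/- with 2 WT samples and the second 2 Ep300+/- with 2 WT samples. Both used C57BL/6 fetuses with WT littermates, and each sample was hybridised to 2 arrays whose values were averaged. The third compared 4 Cdkn1a-/- with 3 WT samples of mixed B6/129Sv background, bought as separate stocks and run on 1 array each. Crebbp and Ep300 encode related acetyltransferases and coactivators of transcription, and Cdkn1a encodes the cell cycle inhibitor p21. The heterozygous fetuses kept 1 intact copy of the gene in all their cells, and the loss was not limited to blood. The sort kept Sca-1+ AA4.1+ cells with high c-Kit and removed cells that carried Ter119, CD5 or CD4/CD8, B220 or GR1, the last being the surface marker of mature granulocytes. Because a pool is a bulk sample, more cells of the granulocyte line and more RNA per cell cannot be told apart in any of the values below.

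Myeloperoxidase (Mpo), neutrophil elastase (Elane), proteinase 3 (Prtn3) and cathepsin G (Ctsg) are packed together into the primary granules of promyelocytes. C/EBPα is needed to form granulocyte and monocyte progenitors, PU.1 acts with it on many granule and receptor genes, and the receptor for G-CSF (Csf3r) carries the signal for granulocyte output and survival. S100A8 pairs with S100A9 to form calprotectin, which fills the cytoplasm of neutrophils.

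Elane and Prtn3 neighbour each other on chromosome 10, with starts 6645 bases apart and no other annotated gene beginning between them. The stretches before their starts are shown because the 2 genes share a granule and a locus. In the Cdkn1a experiment they yet differed widely in how far their levels spread between samples. The letters come from RefSeq (build GRCm38.p6), which held the 250 bases before the start for 8 of the 10 genes, and all are written 5′ to 3′ on the strand of the gene. Capitals mark GAGGAA and GGAAGT, 2 forms of the core that PU.1 and its ETS relatives bind and which overlap by 4 letters where both stand together, and AACGG, a core bound by MYB, on either strand. The 120 bases before the start of Prtn3 (chr10:79879547-79879666) and of Elane (chr10:79886192-79886311), both on the plus strand, read as follows.
Elane: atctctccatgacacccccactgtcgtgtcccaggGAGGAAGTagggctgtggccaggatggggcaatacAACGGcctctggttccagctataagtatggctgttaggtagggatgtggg
Prtn3: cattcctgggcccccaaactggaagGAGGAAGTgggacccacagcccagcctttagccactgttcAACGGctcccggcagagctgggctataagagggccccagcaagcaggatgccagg

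In both windows GAGGAA lay upstream of AACGG, with its first base at -85 in Elane and at -95 in Prtn3, and AACGG began at -50 in Elane and at -55 in Prtn3. Over all 32851 promoter windows of 250 bases in the table, 23.3% held GAGGAA, 19.7% held GGAAGT and 14.5% held AACGG. Ctsg on chromosome 14, Mpo on chromosome 11 and S100a8 on chromosome 3 held the ETS core farther from or nearer to the start. Their stretches are shown because Ctsg and S100a8, like Elane, spread widely between samples of the Cdkn1a experiment, and Mpo spread less. They cover chr14:56102735-56102794 on the minus strand (-220 to -161), chr11:87793534-87793593 on the plus strand (-250 to -191) and chr3:90668891-90669050 on the plus strand (-180 to -21).
Ctsg: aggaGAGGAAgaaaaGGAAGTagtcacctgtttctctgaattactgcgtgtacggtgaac
Mpo: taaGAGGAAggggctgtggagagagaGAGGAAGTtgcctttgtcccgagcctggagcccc
S100a8: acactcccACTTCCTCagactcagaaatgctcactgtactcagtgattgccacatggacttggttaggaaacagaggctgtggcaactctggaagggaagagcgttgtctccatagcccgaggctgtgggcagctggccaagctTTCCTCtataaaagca

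In S100a8 the matches were on the opposite strand. Csf3r also held GAGGAA, at -86, Ms4a3 held GGAAGT, at -55, and Cebpa held AACGG on the opposite strand, at -64. The C/EBP-type word TTGCNNAA, present in 9.56% of all windows, was in none of the 8. These matches describe letters in 1 window and say nothing about binding.

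The labels were checked first. The gate markers Kit and Cd93 reached the minimum intensity of 100 (6.64 on the log2 scale) in all 15 FL HSC samples, and 6 or 7 of 7 stem cell regulators did so in each. Ly6a, the gene of Sca-1, had no probe set of 1 gene. Of 5 markers of the lineages that the sort excluded, 0 reached the minimum in any Crebbp or Ep300 experiment sample. In each Cdkn1a experiment pool 1 or 2 did. There Cd4 lay between 8.38 and 8.79 in all pools. Cd79a passed the minimum in Cdkn1a-/- pools 1 and 3, at 7.15 and 6.76, in WT pool 1, at 7.74, and in WT sample 3, at 8.17. At the brightest probe set of each targeted gene, Crebbp read 11.95 and 11.66 in Crebbp+/- samples against 12.07 and 11.41 in WT samples, and Ep300 read 9.46 and 9.47 in Ep300+/- samples against 9.53 and 9.60 in WT samples. Cdkn1a read 6.56, 6.34, 8.07 and 5.30 in the Cdkn1a-/- pools against 7.66, 8.17 and 8.86 in the WT pools. None of these 3 differences passed the test, and the pool labelled Cdkn1a-/- 3 lay within the WT range, so directions drawn from that library rest on its label. At another Cdkn1a probe set, below the minimum in all pools, that pool read 2.247. There the other Cdkn1a-/- pools lay between 2.18 and 2.245, and the WT pools between 2.438 and 3.855. Another Crebbp probe set read 6.31 and 6.72 in Crebbp+/- samples against 7.004 and 6.88 in WT samples. That change of -0.42 ± 0.16 (SE) did not pass the test (adjusted p of 0.20 by limma). A further Crebbp probe set that was tested read 9.47 and 8.67 in Crebbp+/- samples against 9.625 and 8.49 in WT samples. Its change was 0.01 ± 0.17 (SE), with an adjusted p of 0.98 by limma. Where these probe sets lie relative to the altered part of each allele was not examined. WT sample 3 of the Cdkn1a experiment stood apart and is set apart in all values. It held 5 of 7 erythroid, 6 of 10 macrophage and all 7 fetal hepatocyte markers above the minimum, where the other 6 pools held 0 erythroid, 0 macrophage and 1 to 5 hepatocyte markers. Mouse embryonic fibroblasts (MEFs), from 4 Crebbp+/- and 4 WT fetuses, served as cells outside the blood line. There the brightest Crebbp probe set lay between 9.38 and 9.50 in Crebbp+/- cells against 10.15 to 10.34 in WT cells, without overlap. In the MEFs 8 of the 9 granulocyte genes stayed below the minimum on all 8 arrays, and Cebpa passed it only in WT sample 1, at 7.18.

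**Figure D1:**
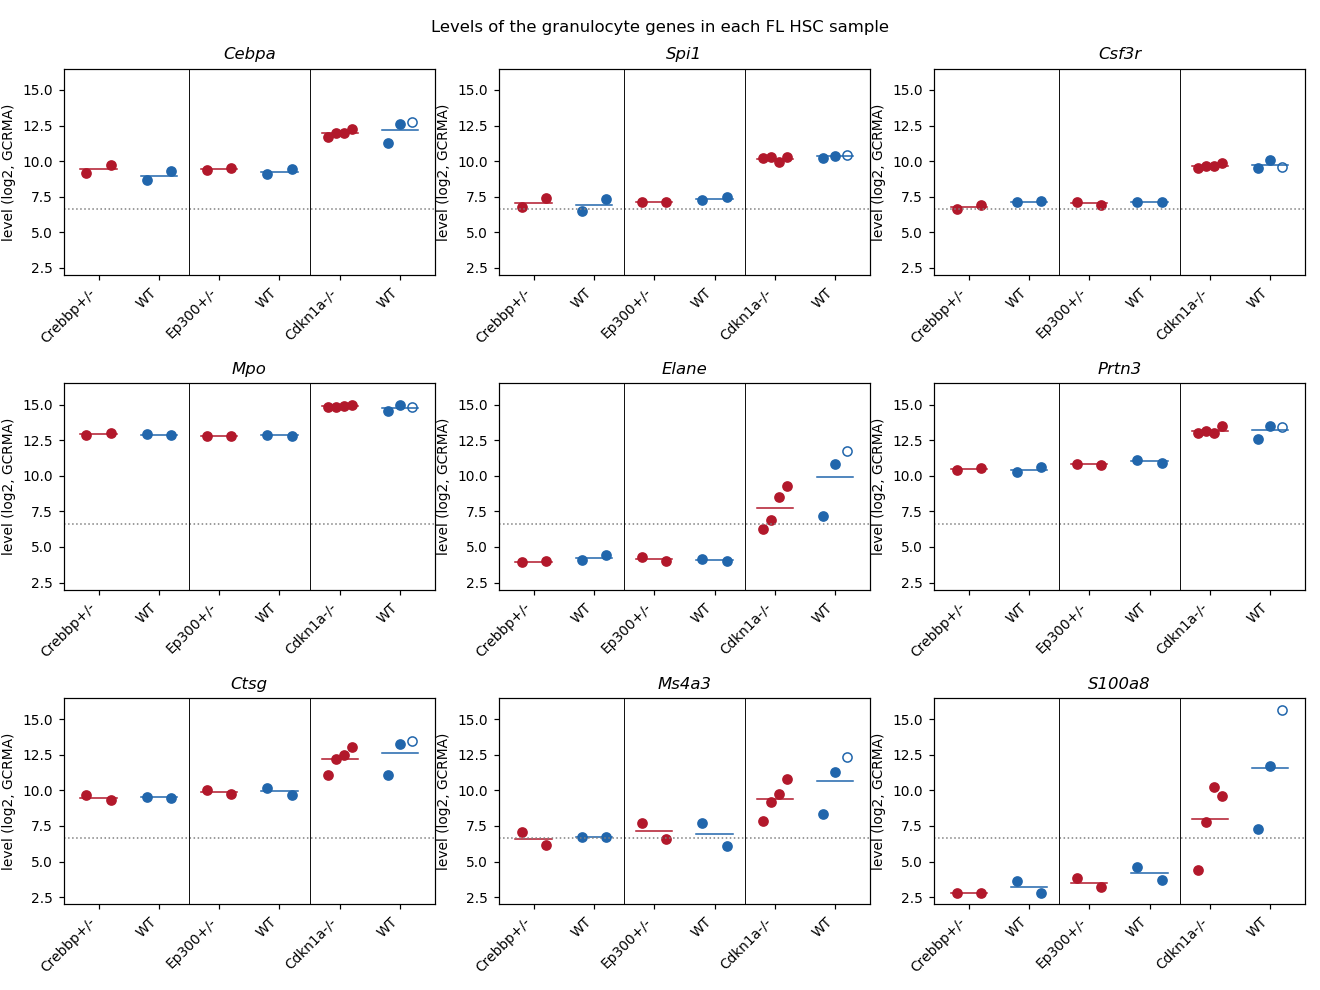
Level of each gene (log2, vertical axis) in every FL HSC sample of the 3 experiments, mutant (red) left of WT (blue), with group means as lines, the minimum of 6.64 as a dotted line and Cdkn1a experiment WT sample 3 as an open circle. Levels compare only within an experiment, between the upright lines. Mpo is nearly flat in each, whereas Elane and S100a8 are below the minimum in the Crebbp and Ep300 experiments and spread widely in the Cdkn1a experiment.

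In FL HSCs that had lost 1 copy of Crebbp, the granule genes differed little from WT. Mpo, Prtn3 and Ctsg were each within 0.05 of WT on the log2 scale, Cebpa was 0.47 above WT and Csf3r 0.35 below it, and none of the 7 genes tested passed an adjusted p of 0.05 with a fold over 1.5. Genes were tested where their highest sample reached the minimum, by limma with each mutant sample paired to the WT sample that shared its number, and p-values were adjusted over all 13332 probe sets of the Crebbp and Ep300 experiments. Of these, 0.383% were called in Crebbp+/- cells and 24.0% had an unadjusted p under 0.05, against 2 of the 7 granulocyte genes. The 7 changes had a median of 0.02, with 4 higher and 3 lower, where all probe sets had a median of 0.05 and 57.7% higher. The groups did not overlap for 1 of the 7 genes, a share to be set beside 28.2% of all probe sets. Elane and S100a8 stayed below the minimum in all 8 samples and were not tested. Hepatocyte markers above the minimum numbered 1 and 2 of 7 in Crebbp+/- samples against 0 and 4 in WT samples, and their part in these values was not tested.

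Among the factors, Cebpa read 9.15 and 9.75 in Crebbp+/- samples against 8.68 and 9.28 in WT samples. The 2 pairs gave the same step, 0.47 each, but the groups overlapped because both samples numbered 2 lay higher than those numbered 1. The change was 0.47 ± 0.11 (SE; 95% interval 0.18 to 0.76), a fold of 1.39, with an adjusted p of 0.10 by limma and an unadjusted p of 0.0088. The adjusted p by limma was 0.71 without pairing the samples and 0.19 on only the 4 samples of this experiment. The same RNA read on 2 arrays differed by a median of 0.25 at this probe set, and by up to 0.73, over the 8 samples of both experiments. Spi1 read 6.77 and 7.40 in Crebbp+/- samples against 6.47 and 7.36 in WT samples, a change of 0.17 ± 0.13 (SE) with an adjusted p of 0.48 by limma. Here too the samples numbered 2 lay above those numbered 1 in both groups.

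Csf3r, the G-CSF receptor gene, read 6.67 and 6.94 in Crebbp+/- samples against 7.12 and 7.18 in WT samples. It was the only tested member whose groups did not overlap, with a change of -0.35 ± 0.12 (SE; 95% interval -0.65 to -0.04), an adjusted p of 0.17 by limma and an unadjusted p of 0.033. All 4 values lay close to the minimum of 6.64. Mpo read 12.84 and 13.01 in Crebbp+/- samples against 12.90 and 12.86 in WT samples. Its 4 values spanned 0.17, a range exceeded by 12535 of the 13332 probe sets and the 95% interval of its change was -0.24 to 0.33. Prtn3 read 10.38 and 10.54 in Crebbp+/- samples against 10.26 and 10.62 in WT samples, and Ctsg read 9.64 and 9.30 in Crebbp+/- samples against 9.51 and 9.49 in WT samples. For both, 1 pair rose and the other fell. Ms4a3, which encodes a membrane protein of the granulocyte and monocyte progenitor, read 7.08 and 6.14 in Crebbp+/- samples against 6.69 and 6.71 in WT samples. Among the 7 genes tested it had the largest difference between 2 arrays of 1 RNA, 1.59, over the 8 samples of both experiments.

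In FL HSCs that had lost 1 copy of Ep300 the granulocyte genes again lay close to WT: no probe set of the 13332 was called (0%), 4.28% had an unadjusted p under 0.05, and none of the 7 granulocyte genes did so by limma. Their median change was -0.07, with 2 higher and 5 lower, where all probe sets had a median of -0.016 and 45.1% higher. The groups did not overlap for 3 of the 7 genes, Spi1, Mpo and Prtn3, all lower in Ep300+/- samples, beside 32.7% of all probe sets. Prtn3 read 10.83 and 10.76 in Ep300+/- samples against 11.11 and 10.89 in WT samples, a change of -0.21 ± 0.11 (SE; 95% interval -0.50 to 0.08). Spi1 read 7.17 and 7.11 in Ep300+/- samples against 7.28 and 7.46 in WT samples, a change of -0.23 ± 0.13 (SE; 95% interval -0.57 to 0.10). Mpo read 12.80 and 12.78 in Ep300+/- samples against 12.83 and 12.82 in WT samples, so that its groups stood apart by less than the median of 0.05 between 2 arrays of 1 RNA.

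Cebpa read 9.37 and 9.49 in Ep300+/- samples against 9.09 and 9.43 in WT samples, higher in both pairs, with a change of 0.17 ± 0.11 (SE; 95% interval -0.12 to 0.46). Csf3r read 7.13 and 6.93 in Ep300+/- samples against 7.12 and 7.10 in WT samples, and Ctsg read 9.996 and 9.711 in Ep300+/- samples against 10.16 and 9.68 in WT samples. Neither moved one way in both pairs. Ms4a3 followed the sample number and not the genotype, with 7.70 and 6.60 in Ep300+/- samples against 7.72 and 6.08 in WT samples. Its range of 1.64 over the 4 samples was exceeded by 57 of the 13332 probe sets. The lower values of Ms4a3, 6.60 and 6.08, lay below the minimum, and for this rank such levels were not set to it. Arrays of the same RNA differed by up to 1.59 at this probe set over the 8 samples of both experiments, nearly as much as that range. Elane read 4.28 and 4.02 in Ep300+/- samples against 4.18 and 4.05 in WT samples, and S100a8 read 3.84 and 3.21 in Ep300+/- samples against 4.63 and 3.73 in WT samples, all below the minimum.

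The Crebbp effect minus the Ep300 effect was tested as a contrast of its own. No probe set was called (0%), 15.2% had an unadjusted p under 0.05, and none of the 7 granulocyte genes did so by limma. The difference was 0.40 ± 0.18 (SE; 95% interval -0.07 to 0.87) for Spi1, 0.30 ± 0.16 for Cebpa and -0.26 ± 0.17 for Csf3r. For Mpo it was 0.08 ± 0.15 and for Ctsg 0.04 ± 0.18. The intervals are wide enough to hold a fold of over 1.5 for Spi1, Cebpa, Csf3r, Prtn3 and Ms4a3.

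**Figure D2:**
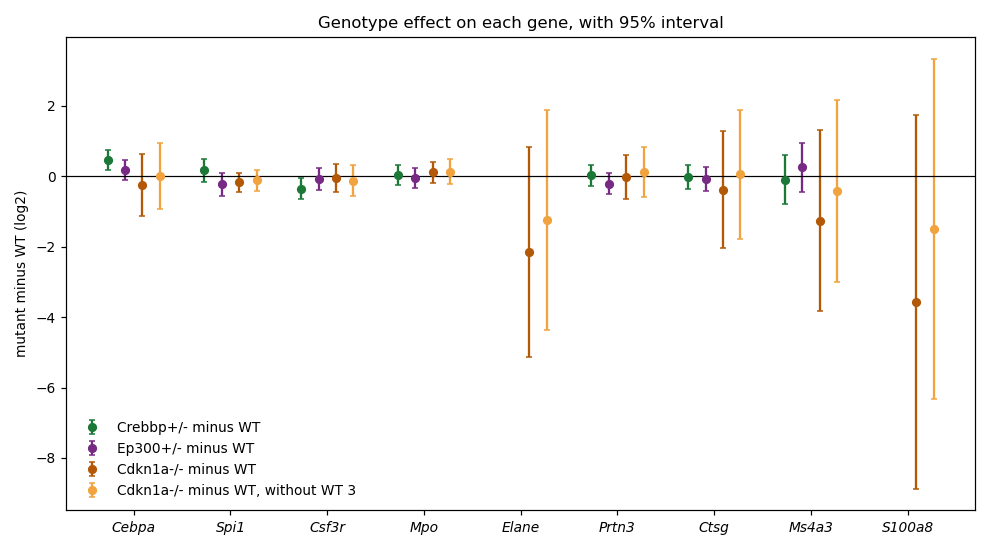
Mutant minus WT (log2, vertical axis) for each gene with its 95% interval from limma, in Crebbp+/- (green), Ep300+/- (purple) and Cdkn1a-/- cells (brown), and in Cdkn1a-/- cells without WT sample 3 (orange). Intervals are narrow in the Crebbp and Ep300 experiments and reach from -8.87 to 1.75 for S100a8 in the Cdkn1a experiment, and Elane and S100a8 have no test in the Crebbp and Ep300 experiments.

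Other genes of the pathway in the Crebbp and Ep300 experiments were read from fixed lists. Of 21 other granulocyte and monocyte factors and receptors tested, 0 were called by limma in either experiment, with 3 and 1 at an unadjusted p under 0.05 in Crebbp+/- and Ep300+/- cells, beside 24.0% and 4.28% of all probe sets. Cebpb, a C/EBP factor of emergency granulopoiesis, read 5.65 and 6.36 in Crebbp+/- samples against 6.12 and 7.07 in WT samples, a change of -0.60 ± 0.12 (SE) with an adjusted p of 0.088 by limma. In the Ep300 experiment Cebpb read 5.42 and 5.14 in Ep300+/- samples against 5.97 and 5.46 in WT samples, a change of -0.44 ± 0.12 (SE). Cebpb was thus lower in all 4 mutant samples than in their paired WT samples, though 7 of these 8 values lay below the minimum. Id1, an inhibitor of helix-loop-helix factors, changed by 0.50 ± 0.12 in Crebbp+/- cells and by -0.26 ± 0.12 in Ep300+/- cells (SE), a difference of 0.76 ± 0.17 with an adjusted p of 0.19 by limma.

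Of 9 other granule and late granulocyte genes tested, 0 were called by limma in either experiment, with 3 at an unadjusted p under 0.05 in Crebbp+/- cells and 0 in Ep300+/- cells, beside the same 24.0% and 4.28%. The 3 were the lysozyme genes Lyz1 and Lyz2, whose products are bactericidal enzymes of granulocytes and macrophages, and Cyba, a subunit of the NADPH oxidase. Lyz1 read 9.55 and 10.001 in Crebbp+/- samples against 10.14 and 10.72 in WT samples, a change of -0.65 ± 0.10 (SE) with an adjusted p of 0.065 by limma. Lyz2 read 9.03 and 8.89 in Crebbp+/- samples against 9.56 and 9.42 in WT samples, a change of -0.54 ± 0.10 (SE) with an adjusted p of 0.079 by limma. Lyz1 and Lyz2 are near-identical neighbours whose probe sets may cross-hybridise, so their values are not independent. Cyba changed by -0.49 ± 0.14 (SE) with an adjusted p of 0.13 by limma. The 17 remaining genes of this list with a probe set did not reach the minimum in these experiments. Among them, S100a9, the partner of S100a8, lay between 2.34 and 2.42 in all 8 samples.

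In the Cdkn1a experiment all 9 measured granulocyte genes reached the minimum in at least 1 pool. None was called between Cdkn1a-/- and WT pools by limma, none had an unadjusted p under 0.05, and for none did the groups stand apart, beside 0.405%, 7.29% and 7.88% of the 20962 probe sets tested. Without WT sample 3 the counts were again 0, beside 0.406%, 6.30% and 12.9% of 20460 probe sets. Of the 9 genes 8 were lower and 1 higher in Cdkn1a-/- pools, with a median of -0.24, where all probe sets had a median of 0.05 and 62.2% higher. That median was -0.71 without WT pool 1 and -0.063 without WT pool 2. Without WT sample 3 the split was 5 lower and 4 higher and the median -0.11, where all probe sets had a median of 0.016 and 55.0% higher. The spread between pools of 1 genotype was large for some of the genes and small for others.

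In these pools the primary granule genes differed in spread, which was least in Mpo and rose through Prtn3 and Ctsg to Elane. Mpo and Prtn3, with the smaller spread, also had higher median levels than Ctsg and Elane, and the part of signal level in the spread was not tested. Mpo read 14.79, 14.86, 14.91 and 14.97 in the Cdkn1a-/- pools against 14.52, 14.98 and 14.82 in the WT pools, the last being WT sample 3. Prtn3 read 12.97, 13.17, 13.02 and 13.49 in the Cdkn1a-/- pools against 12.58, 13.52 and 13.44 in the WT pools. Both stayed within 1 log2 unit over all 7 pools, with WT pool 1 lowest. Among the Cdkn1a-/- pools pool 1 was lowest for both. Outside WT sample 3 the pools ran in the same order for Mpo as for Ctsg, so these 2 differed in the size of their spread.

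Elane, by contrast, read 6.29, 6.88, 8.49 and 9.31 in the Cdkn1a-/- pools against 7.16, 10.83 and 11.72 in the WT pools. Cdkn1a-/- pool 1 lay below the minimum, so that pools of the same genotype differed by at least 6.36-fold among the Cdkn1a-/- pools, with that level taken as the minimum. WT pools 1 and 2 differed by 12.7-fold, and WT pool 1 and WT sample 3 by 23.7-fold. The mean difference between genotypes was -2.16 ± 1.25 (SE), with an adjusted p of 0.72 by limma. It was -1.25 ± 1.27 without WT sample 3 and -3.53 without WT pool 1, with an adjusted p of 1.00 and 0.32 by limma. Ctsg read 11.11, 12.20, 12.50 and 13.04 in the Cdkn1a-/- pools against 11.08, 13.23 and 13.47 in the WT pools. The first pool of each genotype was the lowest of its group, and the groups overlapped. Ranges over the 6 pools other than WT sample 3 were taken with levels under the minimum set to it, a choice made after seeing the data. That of Elane was then at least 4.18, exceeded by 11 of 20460 probe sets, and that of Ctsg was 2.15, exceeded by 185. The range of Prtn3, 0.93, was exceeded by 3293 and that of Mpo, 0.46, by 10490. The neighbours Elane and Prtn3, whose promoter stretches are shown above, thus stood far apart in spread.

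Ms4a3 read 7.86, 9.16, 9.77 and 10.77 in the Cdkn1a-/- pools against 8.35, 11.27 and 12.34 in the WT pools. S100a8 read 4.39, 7.78, 10.20 and 9.62 in the Cdkn1a-/- pools against 7.28, 11.71 and 15.68 in the WT pools. Both were lowest, within each genotype, in its first pool, and were highest in WT pools 2 and 3, as Elane and Ctsg were. Cdkn1a-/- pool 1 lay below the minimum for S100a8, and with that level taken as the minimum the range over the 6 pools other than WT sample 3 was at least 5.07 on the log2 scale, or at least 33.5-fold. Of 20460 probe sets 3 had a wider range on this scale. For Ms4a3 the range was 3.40 and 26 probe sets had a wider one. The genotype differences were -1.26 ± 1.07 (SE) for Ms4a3 and -3.56 ± 2.22 (SE) for S100a8, or -0.42 ± 1.05 and -1.50 ± 1.97 without WT sample 3, with adjusted p-values between 0.72 and 1.00 by limma. Without WT pool 1 the differences were -2.42 for Ms4a3 and -5.70 for S100a8.

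The factors and the receptor had narrower ranges than Elane, Ctsg, Ms4a3 and S100a8. Cebpa read 11.66, 12.01, 11.96 and 12.23 in the Cdkn1a-/- pools against 11.28, 12.63 and 12.72 in the WT pools, again with the first pool of each genotype lowest. Spi1 read 10.25, 10.26, 9.96 and 10.27 in the Cdkn1a-/- pools against 10.25, 10.35 and 10.46 in the WT pools. Csf3r read 9.51, 9.67, 9.69 and 9.84 in the Cdkn1a-/- pools against 9.53, 10.08 and 9.57 in the WT pools, here too with the first pool of each genotype lowest. The range without WT sample 3 was 1.35 for Cebpa, 0.39 for Spi1 and 0.57 for Csf3r, where the median over all 20460 probe sets, with levels under the minimum set to it, was 0.47. The range of Cebpa was thus wider than those of Prtn3 and Mpo and was exceeded by 1141 probe sets, while that of Spi1 was exceeded by 12337 and that of Csf3r by 8011.

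**Figure D3:**
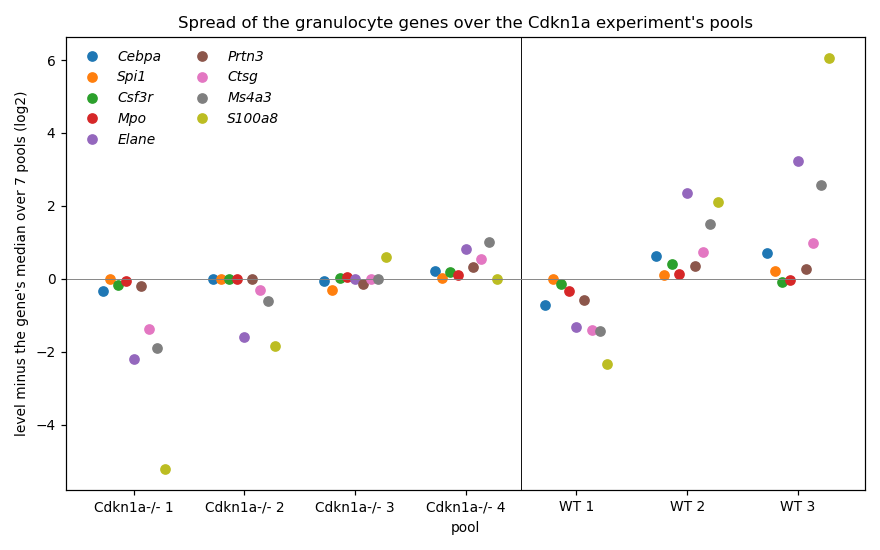
Level of each gene minus its median over the 7 pools of the Cdkn1a experiment (log2, vertical axis), with the 4 Cdkn1a-/- pools left of the 3 WT pools and a colour per gene. S100a8, Elane, Ms4a3 and Ctsg lie low in Cdkn1a-/- pool 1 and WT pool 1 and high in WT pools 2 and 3, and Mpo, Spi1, Csf3r and Prtn3 stay near 0.

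Over the 9 genes, the lowest of the 7 pools was Cdkn1a-/- pool 1 for 4 genes, WT pool 1 for 4 and Cdkn1a-/- pool 3 for Spi1. The highest was WT sample 3 for 6 genes and WT pool 2 for 3. Among the Cdkn1a-/- pools alone, pool 4 was highest for 8 genes, and S100a8 was highest in pool 3. In the Crebbp experiment the range over 4 samples was 0.35 for Ctsg and 0.36 for Prtn3, both below the median of 0.60 over all probe sets, and 0.92 for Spi1. In the Ep300 experiment it was 0.47 for Ctsg, 0.36 for Prtn3 and 0.36 for Spi1, all above the median of 0.29. Ranges over 4 and over 6 samples do not compare directly, since a range widens with the number of samples.

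**Figure D4:**
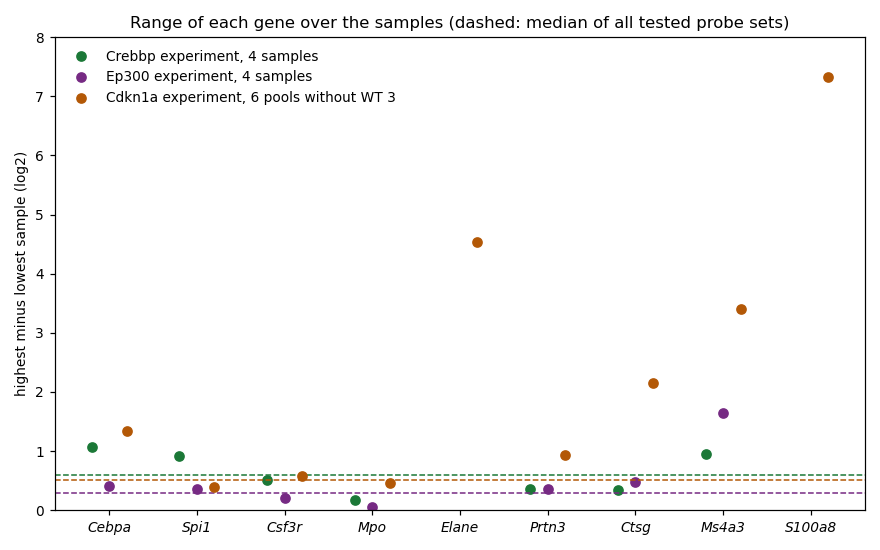
Highest minus lowest sample (log2, vertical axis) of each gene in the Crebbp experiment (green), the Ep300 experiment (purple) and the Cdkn1a experiment without WT sample 3 (brown), with dashed lines at the medians of 0.60, 0.29 and 0.50 over all probe sets tested. S100a8, Elane, Ms4a3 and Ctsg stand at 7.32, 4.53, 3.40 and 2.15 in the Cdkn1a experiment as deposited, the first 2 against a level of Cdkn1a-/- pool 1 below the minimum, and Elane and S100a8 have no point in the Crebbp and Ep300 experiments, where they were below the minimum.

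Genes of the same pathway from the fixed lists were read in the same pools. Of 24 other granulocyte and monocyte factors and receptors tested, 0 were called by limma, with 1 higher and 3 lower in Cdkn1a-/- pools at an unadjusted p under 0.05, beside 7.29% of all probe sets. Without WT sample 3 there were 1 higher and 1 lower, beside 6.30%. Egr1, a factor of monocyte differentiation and an early response gene, read 12.42, 12.34, 13.11 and 12.45 in the Cdkn1a-/- pools against 11.44, 9.88 and 10.997 in the WT pools. Its groups did not overlap, and the change was 1.81 ± 0.39 (SE) with an adjusted p of 0.22 by limma. Fcgr2b, the inhibitory Fc receptor gene, read 7.93, 8.78, 9.08 and 9.11 in the Cdkn1a-/- pools against 9.15, 10.68 and 10.67 in the WT pools, a change of -1.44 ± 0.47 (SE) with an adjusted p of 0.55 by limma. Its groups did not overlap, though they nearly met, and its first pool of each genotype was again lowest. Il6st, the shared receptor chain gp130, changed by -0.56 ± 0.18 (SE) and Csf2rb2, a receptor chain for interleukin 3, by -0.61 ± 0.21 (SE). Both were also without overlap of the groups, as were 7.88% of all probe sets. These genes were named by rank of p, so they give no share for the list.

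Of 21 other granule and late granulocyte genes tested, 20 were lower and 1 higher in Cdkn1a-/- pools, where 62.2% of all probe sets were higher. By limma 0 were called and 0 had an unadjusted p under 0.05, beside 7.29% of all probe sets, and the median change was -1.46. Without WT sample 3 only 15 of them reached the minimum, 12 lower and 3 higher, where 55.0% of all probe sets were higher. Their median was -0.10, and 1 was lower at an unadjusted p under 0.05, beside 6.30%. The genes lost had reached the minimum only in WT sample 3, so they were lower in Cdkn1a-/- pools by this choice. The 2 medians thus cover different genes and do not measure the effect of that library alone. Fcnb, a granule lectin, read 2.55, 5.20, 5.84 and 6.12 in the Cdkn1a-/- pools against 4.45, 7.85 and 12.14 in the WT pools. Hp, haptoglobin, read 7.85, 9.83, 9.66 and 10.01 in the Cdkn1a-/- pools against 9.08, 11.20 and 12.93 in the WT pools. In both the first pool of each genotype was lowest within that genotype, as for Elane and Ms4a3. Fcnb, however, lay below the minimum in all Cdkn1a-/- pools and in WT pool 1. S100a9 and the secondary granule genes Camp, Ltf and Lcn2 were picked after their values were seen. S100a9 read 2.90, 9.35, 10.92 and 6.92 in the Cdkn1a-/- pools against 4.46, 11.49 and 15.67 in the WT pools, and so went with its partner S100a8. Camp, the cathelicidin gene, read 5.21, 5.28, 5.41 and 4.82 in the Cdkn1a-/- pools against 5.20, 6.68 and 14.66 in the WT pools. Camp reached the minimum only in WT pool 2 and WT sample 3, and S100a9 was below it in the first pool of each genotype. Ltf, lactoferrin, reached 13.02 and Lcn2, lipocalin 2, reached 13.11 in WT sample 3, and in the other pools they stayed between 6.84 and 7.49 and between 2.10 and 5.18.

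Markers of other cells moved with some of these values. The summed level of 10 mast cell, basophil and eosinophil genes was 6.28 to 8.82 on the log2 scale in the Cdkn1a-/- pools, and 5.66, 8.65 and 13.14 in the WT pools, low in the first pool of each genotype as the granule genes were. Outside WT sample 3 at most 1 of the 10 reached the minimum, and this was Cpa3, at 5.04, 7.54, 7.37 and 8.53 in the Cdkn1a-/- pools against 3.14 and 8.08 in WT pools 1 and 2. The summed level of 7 hepatocyte genes was 9.82 to 11.85 in the Cdkn1a-/- pools against 8.92, 8.73 and 16.71 in the WT pools, so that it did not follow the order of the granule genes outside WT sample 3. Erythroid and macrophage sums lay between 5.92 and 7.03 in the 6 pools other than WT sample 3, and stood at 13.67 and 13.10 in it. The 7 stem cell regulators summed to 15.32 to 15.58 in the Cdkn1a-/- pools against 15.78, 15.28 and 15.26 in the WT pools, highest in WT pool 1 where the granule genes were low. Lymphoid markers ran the other way outside WT sample 3. Of 8 with a probe set 4 or 5 reached the minimum in each pool, Dntt, Cd3e and Pax5 lying below 2.24 in all, and the summed level was 12.29, 12.02, 11.87 and 10.47 in the Cdkn1a-/- pools against 11.90, 11.05 and 12.11 in the WT pools. It was lowest in Cdkn1a-/- pool 4 and WT pool 2, where most granulocyte genes were high. Rag1, which encodes a subunit of the lymphoid recombinase, read 9.86, 8.64, 8.91 and 6.71 in the Cdkn1a-/- pools against 10.04, 7.75 and 9.07 in the WT pools, and was picked after its values were seen. The part of these cells in the spread of the granulocyte genes was not tested.

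**Figure D5:**
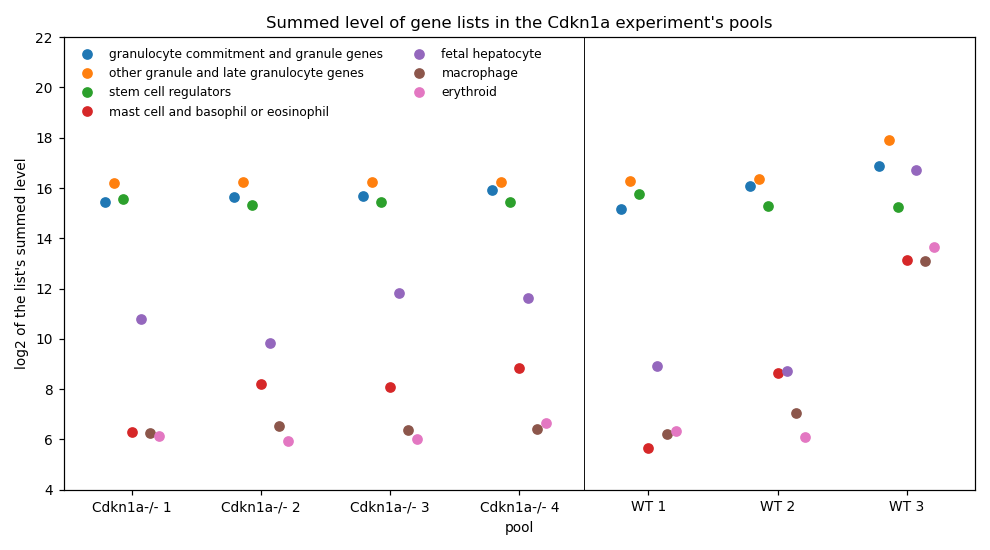
Summed level of each gene list (log2 of the sum of linear levels, vertical axis) in the 7 pools of the Cdkn1a experiment, the 4 Cdkn1a-/- pools left of the 3 WT pools. WT sample 3 stands apart in the erythroid, macrophage and hepatocyte sums, and the mast cell, basophil and eosinophil sum is low in the first pool of each genotype.

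The 5 other genes whose pattern lay nearest to the mean of Mpo, Elane, Prtn3 and Ctsg were found over the 14 FL HSC samples other than WT sample 3, each level centred within its experiment, among 7580 genes tested in both fits. They were Rab44 (Pearson's r of 0.93), Fcgr3 (0.93), F13a1 (0.92), Zbtb16 (0.88) and Anxa3 (0.88). Rab44 encodes a large Rab GTPase, Fcgr3 the low-affinity activating Fc receptor, F13a1 the A subunit of coagulation factor XIII, Zbtb16 the factor PLZF and Anxa3 an annexin of granulocytes. The likeness came mainly from the Cdkn1a pools. Over the 8 samples of the Crebbp and Ep300 experiments r was 0.26 for Rab44, 0.57 for Fcgr3, 0.47 for F13a1, -0.51 for Zbtb16 and 0.61 for Anxa3, against 0.90 to 0.96 over the 6 Cdkn1a pools. Rab44 read 7.26, 8.22, 8.72 and 8.72 in the Cdkn1a-/- pools against 7.03, 10.28 and 10.91 in the WT pools, and Fcgr3 read 8.71, 9.54, 9.56 and 10.18 in the Cdkn1a-/- pools against 9.24, 10.70 and 12.54 in the WT pools. The points share their pools and arrays, and Elane had the widest range of the 4 genes averaged, so these coefficients describe the samples only.

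Among the granulocyte genes themselves, r with that mean over the same 14 samples was 0.91 for Ms4a3, 0.89 for S100a8, 0.76 for Csf3r, 0.70 for Cebpa and 0.09 for Spi1. For the genes averaged, r was 0.96 for Elane, 0.95 for Ctsg, 0.82 for Prtn3 and 0.74 for Mpo, so the mean mostly followed Elane and Ctsg. Ms4a3 and S100a8 therefore lay close to that mean, and the level of the PU.1 gene hardly moved with it. S100a8 was below the minimum in all Crebbp and Ep300 experiment samples, and these coefficients were not split by experiment.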

How the data were processed

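RNA of sorted FL HSCs (12 ng per sample, amplified) and of MEFs was hybridised to Affymetrix mouse whole-genome arrays, 31 arrays of 23 samples. The authors summarized the probes with GCRMA (version not given in the sources used here), separately for each of 4 array groups, and the deposited values are log2 levels. GCRMA corrects for background by probe composition and quantile-normalizes within a group, so levels were compared only within an experiment, and a group that holds a deviating sample is scaled together with it. Precision is set by how few samples each genotype has in an experiment, and not by the number of arrays.

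In the re-analysis 64 control probe sets were left out, technical replicates were averaged, and probe sets were kept where the highest sample reached log2(100). Of the 45037 remaining probe sets 34945 have 1 gene in the annotation, 932 several and 9160 none, and only those with 1 gene were named. limma 3.58.1 in R 4.3.3 (lmFit, eBayes, two-sided) fitted the Crebbp and Ep300 experiments together, with a genotype effect for each and a block for each WT and mutant sample of the same number, since the study's methods name a paired test and WT littermates as controls; no source states which samples were pairs. The pairs' deviations from their group means correlated at 0.70 in the Crebbp and 0.40 in the Ep300 experiment, with 2 pairs each. The Cdkn1a experiment was fitted without pairs. A call is a Benjamini-Hochberg adjusted p under 0.05 over all probe sets tested with a fold over 1.5. Errors are standard errors of the fit or, where named, SD. Nothing states that samples of 1 number shared a litter or a day. In the Crebbp and Ep300 fit p-values measure the spread of differences within pairs, with 1 estimate shared by both experiments. In the Cdkn1a fit they measure the spread between pools. The median range over the samples was 0.60 in the Crebbp and 0.29 in the Ep300 experiment, and whether 1 estimate suits both was not tested. The fits were tested on simulated data. The genes and lists were chosen with earlier results of these data known. Genes outside the 10 were named by rank of p, at most 4 for each list and comparison, or by likeness to the mean of Mpo, Elane, Prtn3 and Ctsg, unless said otherwise. Megakaryocyte markers were also read, and the lymphoid, megakaryocyte and gate-excluded lists had 0 called in any comparison. Alternatives covered the block, the level filter, scaling, technical replicates, left-out samples, array weights and the methods' t-test. Promoter windows and gene positions are those of RefSeq, build GRCm38.p6.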

Additional observations from a re-analysis of the deposited data

Results flagged for a closer look

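Spi1 in Cdkn1a-/- pool 3 stood apart from the other 3 Cdkn1a-/- pools, at 9.96 against 10.25, 10.26 and 10.27, with a gap of 0.958 of the group's whole range. Chance sets apart about 1 in 20 groups of 4, and 9 genes were examined in this way. Spi1 also moved in opposite directions in the Crebbp and Ep300 experiments, up in both Crebbp pairs (0.30 and 0.04) and down in both Ep300 pairs (-0.11 and -0.36). The test of the difference itself gave 0.4005, or 0.40 on the log2 scale, with an adjusted p of 0.38 by limma, so it did not pass.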

How the results depend on the processing

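No granulocyte gene was called under the alternatives run, though those with a filter on the interquartile range, the methods' t-test among them, kept only Spi1 in the Crebbp, Ms4a3 in the Ep300 and 5 genes in the Cdkn1a experiment. Over all probe sets the count of calls in Crebbp+/- cells was 51, but 0 with no replicate block, with no filter on the level, on only technical replicate 1 or 2, on only the 4 samples of the experiment and by the methods' t-test after Benjamini-Hochberg adjustment. It was 677 with an interquartile range of at least 0.5, 208 with each sample centred on its median and 199 by the methods' t-test unadjusted, and 0 when either pair was left out. In Ep300+/- cells the methods' t-test unadjusted made 11 calls, and all other settings 0. In Cdkn1a-/- cells the 85 calls became 6 with a replicate block on numbers 1 to 3, where the same-numbered samples correlated at 0.21, 0.29 and -0.01, 42 with no filter, 548 by the methods' t-test unadjusted and 141 after adjustment. Leaving out 1 replicate gave 38 to 87 calls, 38 without Cdkn1a-/- pool 2 or 4, 43 without pool 1, 51 without pool 3 and 52 without WT pool 1. The cause of these shifts was not tested.

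The median change of the granulocyte genes in Ep300+/- cells, -0.0675, was -0.0586 with samples centred, 0.0075 on technical replicate 2 alone and -0.042 to -0.0295 when a pair was left out. Genes whose sign turned in Crebbp+/- cells were Prtn3 (-0.0188) with samples centred and Ctsg (0.062) on technical replicate 2, and leaving out a pair gave -0.074 to 0.123 for Prtn3, -0.059 to 0.15 for Mpo, -0.19 to 0.13 for Ctsg and -0.57 to 0.39 for Ms4a3. In Ep300+/- cells Csf3r was 0.027 and Mpo 0.0075 on technical replicate 2, and leaving out a pair gave -0.17 to 0.0065 for Csf3r, -0.161 to 0.026 for Ctsg and -0.016 to 0.51 for Ms4a3. In Cdkn1a-/- cells Prtn3 was 0.13 with array weights, and leaving out a pool gave -0.71 to 0.009 for Cebpa, -0.15 to 0.13 for Csf3r, -0.016 to 0.21 for Mpo, -0.31 to 0.15 for Prtn3 and -1.14 to 0.056 for Ctsg. Without WT sample 3 Cebpa, Prtn3 and Ctsg turned, to 0.009, 0.11 and 0.056. Elane, Ms4a3 and S100a8 kept a negative sign in Cdkn1a-/- cells under every setting that gave them a value, but leaving out a pool gave -3.53 to -1.25, -2.42 to -0.42 and -5.70 to -1.50. The median of the granulocyte genes in Cdkn1a-/- cells was -0.71 to -0.063 when a pool was left out, -0.092 with array weights and -0.33 with the replicate block.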
